A study of Mus musculus with 7 samples.

Results

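The myogenic regulatory factors, 2 Mef2 proteins and serum response factor were examined in soleus muscle of mice that lack tenascin-C. Members were the array probes whose annotated gene symbol is Myod1, Myf5, Myf6, Myog, Mef2a, Mef2c or Srf. Each of the 7 genes had 1 probe, so the set holds 7 of the 223 probes on the array, of which 205 carry a gene name. RNA came from the muscle belly of 7 cage control mice, all deficient for tenascin-C (Tnc null) and on the 129/SV background. They form 1 group of 7 biological replicates, with no wild-type, exercised or otherwise treated sample analysed here. The comparisons below are therefore between mice and between a probe and the floor of its own array, and they hold no estimate of what the deletion does. The labels give neither age nor the way the allele was made, and replicate numbers only name the animals. A code in the sample titles, which the labels do not explain, differs between replicate 1 and the other replicates.

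Myod1, Myf5, Myog and Myf6 are basic helix-loop-helix proteins that bind E-boxes and switch on muscle genes. In development Myf5 and Myod1 commit cells to the muscle lineage, Myog drives fusion and terminal differentiation, and Myf6 is the family member that stays prominent in adult fibres. Mef2a, Mef2c and Srf are MADS-box factors. Mef2 proteins cooperate with the helix-loop-helix factors and act in slow fibre gene expression downstream of calcium signals, and Srf binds CArG boxes in actin, growth and immediate-early genes. In resting adult muscle Myod1 and Myf5 are mostly known from satellite cells, the muscle stem cells, and Myod1 also from fast fibres.

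These factors are known to regulate each other. Promoter sequence of 2 members is printed below, with motifs through which this is thought to happen. RefSeq promoter entries for GRCm38.p6, from 250 bases before to 50 after a start site, were matched for 5 of the 7 genes (Mef2c has 3 entries), and Myod1 and Myf6 were not matched. Capitals in the first sequence mark CArG boxes, and in the second the MEF2-like letters CTANNNNTA and an E-box, CANNTG. Both are printed 5′ to 3′ on the strand of the gene.
Srf, chr17:46556203-46556256, minus strand: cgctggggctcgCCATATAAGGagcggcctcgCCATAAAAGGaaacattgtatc
Myog, chr1:134289928-134290003, plus strand: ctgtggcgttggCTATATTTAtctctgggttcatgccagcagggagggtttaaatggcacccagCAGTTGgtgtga
The Srf promoter held 2 CArG boxes, at bases -82 to -73 and -62 to -53 from its start, a motif found on either strand in 1.63% of the 32851 promoter entries. The Myog window ends at the base before the start, and another E-box lay farther upstream. E-boxes occurred in 72.3% of all entries and CTANNNNTA in 21.0%, so such matches are common. The Myf5 entry also held CTANNNNTA, and of the 3 Mef2c entries 2 held E-boxes and 1 held CTANNNNTA. The full MEF2 motif, found in 3.19% of entries, matched the Mef2a promoter across its start and no other member's. The E-box and CTANNNNTA patterns share no bases in these windows. All these matches only describe letters, and the arrays carry no measure of binding. In the same annotation Myf5 and Myf6 are neighbours on chromosome 10.

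Signals are percent of each array's summed signal, and the 10th percentile of an array's 223 probes is called its floor. Judged from the totals, that sum leaves out 28S rRNA and 1 unnamed probe, whose readings are on the same scale but not part of it. A probe above 3 times the floor is called clearly above it. The floor differed between arrays, at 0.05% of the sum in replicates 1 and 6, 0.04% in replicates 2 and 7, 0.08% in replicates 4 and 5 and 0.15% in replicate 3. Values are recorded in steps of 0.01%, which is 15% of the mean Myog signal but 1.57% of the mean Mef2c signal (6 arrays without replicate 3). Replicate 3 stood apart from the other arrays. Its 4 skeletal muscle markers (Myh7, Mb, Ttn and Des) summed to 1.42% of the signal, against 18.8% to 25.6% on the other 6, and its 28S rRNA probe read 0.37%. That probe also separates replicates 1 and 2, at 3.48% and 3.79%, from replicates 4 to 7, at 24.1% to 49.7%. All 5 endothelial probes were highest in replicate 3, as were 70.4% of all probes. Their sum was 9.50% against 0.45% to 1.27%, of which Pecam1 alone gave 8.36%. Cdh5 read 0.60%, or 4 times that array's floor, against 2 to 6 times on the other arrays. Flt1 read 0.22%, or 1.47 times the floor of replicate 3, and Kdr and Tek 0.16%, or 1.07 times. The 3 fibroblast probes summed to 0.49% against 0.24% to 0.34%, the 2 satellite cell probes (Cd34 and Vcam1) to 0.41% against 0.16% to 0.30%, and the leukocyte probe Il1b read 0.17% against 0.04% to 0.09%. In replicate 3 the fibroblast probes, Vcam1 and Il1b were at 1.07 to 1.13 times its raised floor. The adipocyte probe Fabp4 was lowest there, at 0.18% against 0.34% to 0.66%. The lists for smooth muscle, nerve and blood had no named probe. The part of these differences in the results below was not tested, and values are given with and without replicate 3. In whole muscle, fewer cells of a type and less RNA per cell cannot be told apart.

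Mef2c read farthest above the floor, Myf6 and Srf lay between 1 and 5 times the floor, and Myod1, Myf5, Myog and Mef2a read near the floor outside replicate 3. On all 7 arrays 3 of the 7 factors (Myf6, Mef2c and Srf) read above the 10th percentile, against 58.3% of all probes. Exceeding 3 times the floor throughout these 6 arrays was 1 of 7, Mef2c, against 17% of all probes. Never above 3 times the floor on these 6 arrays were 4 of 7 (Myod1, Myf5, Myog and Mef2a), against 62.8% of all probes. The last 2 counts are close to the shares over the whole array, so they single out no brightness of the set. Each array had 5 or 6 of the 7 factors above its 10th percentile, where 72.6% to 85.2% of all probes were. That count is near the share over all probes, which the cutoff largely sets. Those at or below it were Myf5 on 5 arrays, Myog on 2, and Mef2a and Myod1 on 1 each.

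**Figure D1:**
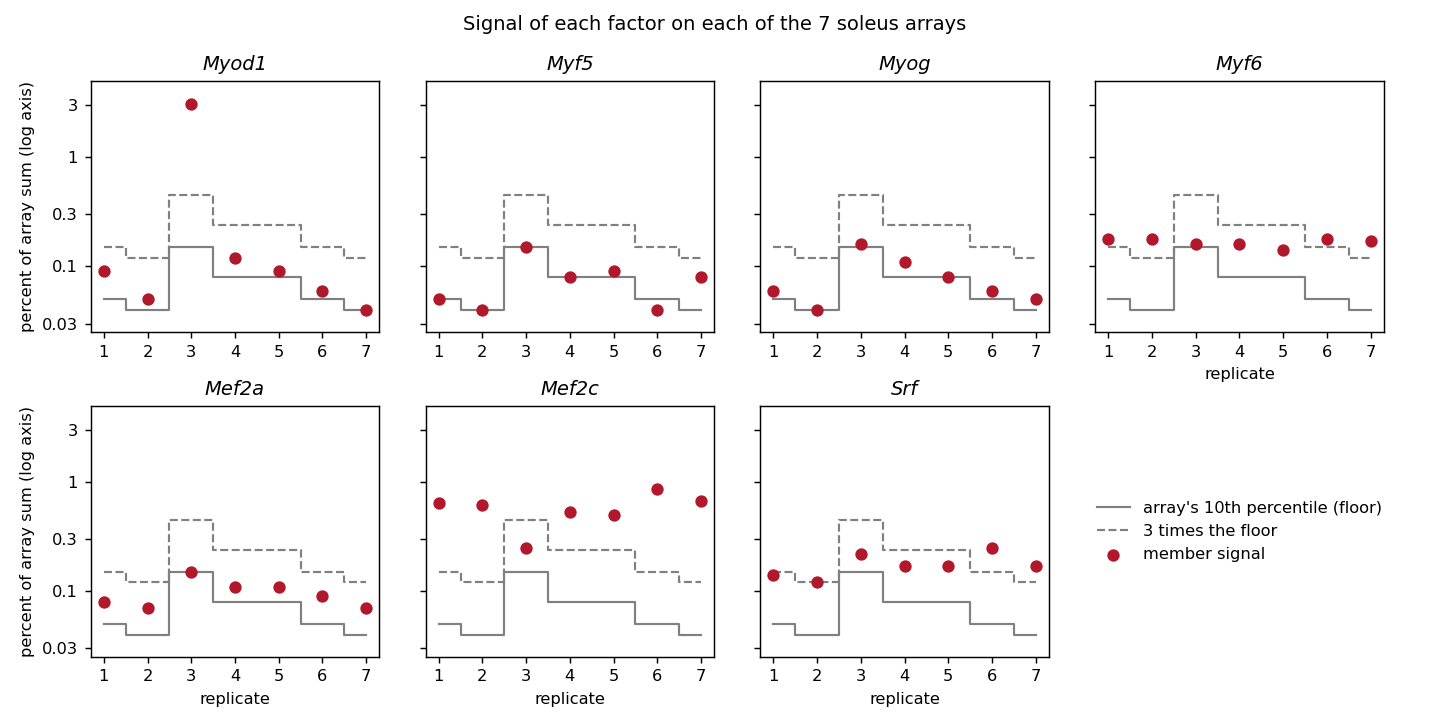
Signal of the 7 factors as percent of the array sum (log axis) on each of the 7 arrays, with each array's 10th percentile as a solid line and 3 times that level dashed. Mef2c lies above the dashed line on every array but replicate 3, Myf6 on 4 arrays and Srf on 2, and Myod1 lies far above it in replicate 3 alone, at 3.11%.

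The distance from the floor was then tested against the spread between mice. limma's treat test asked of all 223 probes whether the mean log2 signal over the floor exceeded 3-fold, with Benjamini-Hochberg adjustment over all probes. Over 7 arrays Mef2c was called (8.76 times the floor, 95% interval 4.25 to 18.0, limma adjusted p = 0.026), the only call among the 7 factors against 13% of all probes. Without replicate 3 its mean was 11.5 times the floor (7.88 to 16.9, limma adjusted p = 6.1e-09), again the only call among the factors, against 17.9% of all probes. With replicate 3 kept, leaving out any other array ended the Mef2c call (limma adjusted p from 0.064 to 0.106). Against the floor itself instead of 3 times the floor, limma called 5 of the 7 factors over 7 arrays (Myf6, Myog, Mef2a, Mef2c and Srf), where 78% of all probes were called. The probe of the deleted gene, Tnc, itself read 1.13 to 3 times the floor, so a level above the floor alone does not establish expression.

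**Figure D2:**
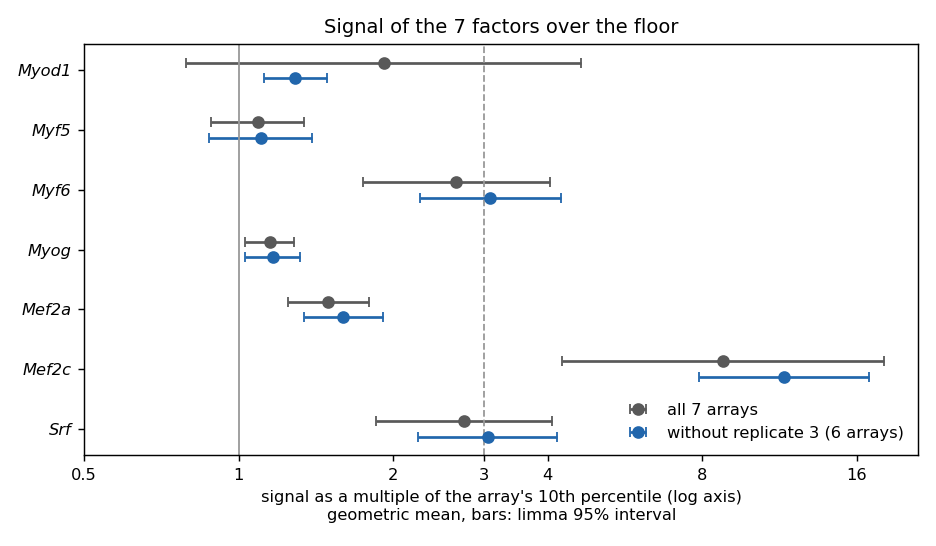
Geometric mean of each factor's signal as a multiple of the array's 10th percentile (log axis), with limma's 95% interval, over all 7 arrays (grey) and over the 6 without replicate 3 (blue). Lines stand at 1 and 3 times the floor. The Mef2c intervals lie above 3, those of Myf6 and Srf span it, those of Myf5, Myog and Mef2a lie below, and that of Myod1 reaches past 3 only with replicate 3.

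Among the factors linked to lineage commitment and differentiation, Myod1 read 0.09%, 0.05%, 3.11%, 0.12%, 0.09%, 0.06% and 0.04% of the array sum in replicates 1 to 7. The value of replicate 3 does not overlap the others, which lie near the floor of their arrays, so no fold is given. It was the 7th highest of the 223 probes on that array and 20.7 times its floor. On the other 6 arrays Myod1 stood at 1 to 1.8 times the floor, with a mean of 0.075% ± 0.030 (SD, n = 6), and in replicate 7 it was at the floor. Of the 7 factors only Myod1 was clearly above the floor in replicate 3, where 13% of all probes were.

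Myf5 read 0.05%, 0.04%, 0.15%, 0.08%, 0.09%, 0.04% and 0.08% in replicates 1 to 7. It exceeded the floor on 2 arrays, replicates 5 and 7, and was clearly above it on none. Relative to the floor, replicate 7 was highest at 2 times and replicate 6 lowest at 0.8 times. Its limma mean over 7 arrays was 1.09 times the floor, with a 95% interval of 0.882 to 1.34 that includes the floor itself.

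Myog, the differentiation factor, read 0.06%, 0.04%, 0.16%, 0.11%, 0.08%, 0.06% and 0.05%. It stayed between 1 and 1.38 times the floor on all 7 arrays, and its limma 95% interval over 7 arrays was 1.03 to 1.28 times the floor. The order of the arrays for Myog was close to the order of their floors, with replicate 3 highest and replicates 4 and 5 next.

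Myf6, the factor of mature fibres, read 0.18%, 0.18%, 0.16%, 0.16%, 0.14%, 0.18% and 0.17% in replicates 1 to 7. It was clearly above the floor in replicates 1, 2, 6 and 7, at 3.6 to 4.5 times, and at 2 and 1.75 times in replicates 4 and 5. In replicate 3 it was at 1.07 times the floor, so that reading cannot be separated from background. The limma mean without replicate 3 was 3.09 times the floor (95% interval 2.25 to 4.24), which did not pass 3-fold (limma adjusted p = 1). Its share of the array sum varied less than that of any other probe over 7 arrays, with an SD of 0.13 on the log2 scale against 0.17 for the next probe. That rank includes the reading of replicate 3, and without it 4 probes varied less. As a multiple of the floor, the log2 SD of Myf6 over 7 arrays was 0.78.

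Among the MADS-box factors, Mef2c read 0.64%, 0.62%, 0.25%, 0.53%, 0.50%, 0.86% and 0.67% in replicates 1 to 7. Replicate 3 was below every other array, at 0.393 times their mean and 1.67 times its own floor. On the other 6 arrays the mean was 0.637% ± 0.128 (SD, n = 6), and between 85.2% and 90.6% of the probes of an array were dimmer than Mef2c. Replicate 6 was highest, and the highest and lowest of these 6 differed 1.72-fold. As multiples of the floor they fell into 2 ranges, 6.25 and 6.63 in replicates 5 and 4, whose floor was higher, and 12.8 to 17.2 in replicates 1, 2, 6 and 7.

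Mef2a, the relative of Mef2c, read 0.08%, 0.07%, 0.15%, 0.11%, 0.11%, 0.09% and 0.07%. It exceeded the floor on every array except replicate 3, at 1.38 to 1.8 times, and clearly above it on none. In replicate 3 it was at the floor. After each array was centred on its median probe, Mef2a had a log2 SD of 0.16 over 7 arrays, smaller than that of all but 4.04% of the probes. How much of a reading this close to the floor is background was not tested.

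Srf read 0.14%, 0.12%, 0.22%, 0.17%, 0.17%, 0.25% and 0.17%. It was above the floor on all 7 arrays and clearly above it in replicates 6 and 7, at 5 and 4.25 times. Replicate 2 sat exactly at 3 times the floor, and replicate 3 at 1.47 times. The limma mean without replicate 3 was 3.05 times the floor (95% interval 2.23 to 4.17, limma adjusted p = 1).

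Replicate 3 was the highest array for 4 of the 7 factors (Myod1, Myf5, Myog and Mef2a), where it was highest for 70.4% of all probes. For Myf5, Myog and Mef2a its value was at or within 1.07 times its floor, so of these 4 only Myod1 rose above the higher background of that array. It was the lowest array for 1 of 7, Mef2c, where it was lowest for 14.3% of all probes. For Myf6 and Srf it lay within the range of the others.

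The spread between mice was tested with limma's variance test, which compares each probe's variance with the trend of variance on mean level over all 223 probes. Over 7 arrays it called 0 of the 7 factors, against 0% of all probes, and at an unadjusted p under 0.05 there were 1 factor, Myod1, and 17 probes in all. The log2 SD of Myod1 was 2.14 over 7 arrays, 3.72 times the trend (limma adjusted p = 0.24), and 0.60 without replicate 3 (limma adjusted p = 0.95). Without replicate 3 the test called 0 of 7 factors against 2.24% of all probes, with 0 factors and 22 probes at an unadjusted p under 0.05. Over these 6 arrays the log2 SDs were 0.54 for Myf5, 0.51 for Myog, 0.36 for Srf, 0.30 for Mef2a, 0.28 for Mef2c and 0.14 for Myf6, between 0.364 and 1.10 times the trend.

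Which factors looked steady depended on the scale. As shares of the array sum without replicate 3, Myf6 had a larger SD than 1.79% of all probes and Mef2c than 16.1%. After centring each array on its median probe, their SDs were 0.48 and 0.53, larger than those of 78.0% and 81.6% of all probes. Myog and Mef2a went the other way, from 0.51 to 0.25 and from 0.30 to 0.16. Myf5 and Myod1 changed less, from 0.54 to 0.46 and from 0.60 to 0.48, still larger than those of 76.7% and 78.5% of all probes. Myf6 and Mef2c thus varied less as a share of the sum than against the median probe, and Myog and Mef2a more. Neither scale led to a call among the factors.

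**Figure D3:**
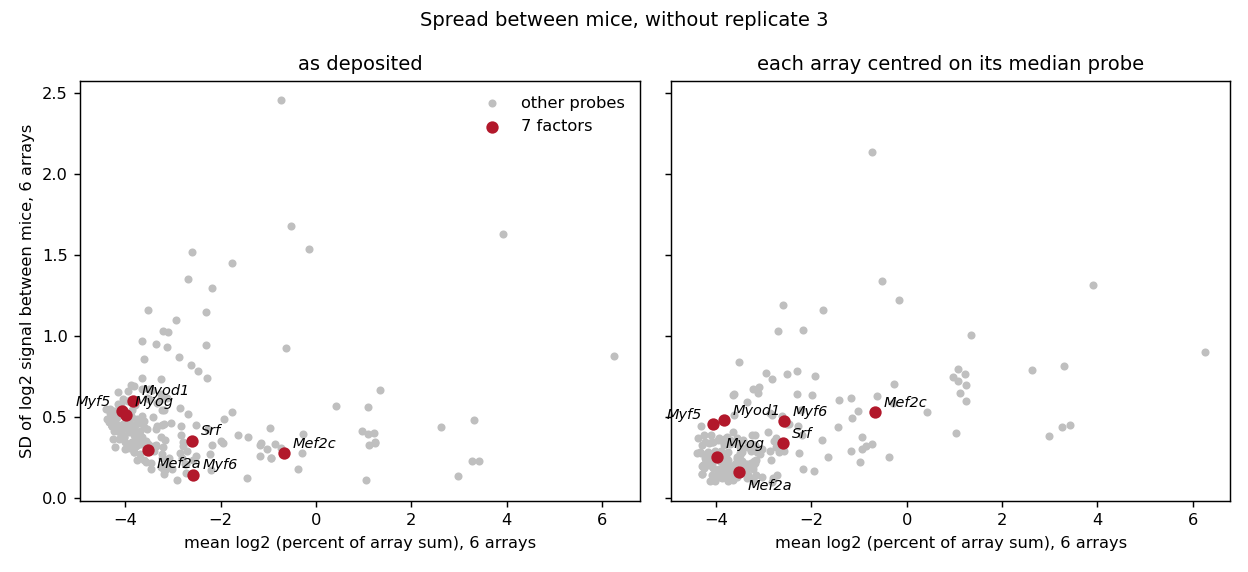
SD of the log2 signal between mice against mean log2 percent of the array sum over the 6 arrays without replicate 3, for the 7 factors (red) and the other probes (grey). The left panel uses the deposited scale and the right panel arrays centred on their median probe. Myf6 moves from 0.14 to 0.48 and Mef2c from 0.28 to 0.53, while Myog and Mef2a move down.

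Likeness between probes was measured by the SD of the log2 ratio of their signals across arrays, which no scaling of an array can change. Among the 7 factors, the closest pair over the 6 arrays without replicate 3 was Myf6 and Mef2c (SD 0.19), and over all 7 arrays their value was 0.51. Myog with Mef2a (0.26) and Myod1 with Myog (0.30) came next, and these readings lie near the floor that they share. The widest pair was Myod1 and Mef2c (0.79).

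Of 35 other named probes clearly above the floor on the 6 arrays, Acadl was closest to Mef2c. Acadl encodes long-chain acyl-CoA dehydrogenase, a mitochondrial enzyme of fatty acid oxidation. It read 0.53%, 0.47%, 0.21%, 0.41%, 0.40%, 0.71% and 0.47% in replicates 1 to 7, so it was highest in replicate 6 and lowest in replicate 3, as Mef2c was. The SD of the log2 ratio was 0.09 over 6 arrays and 0.09 over 7, against medians of 0.43 and 0.68 over the 35 probes. The signal ratio of Mef2c to Acadl ran from 1.21 to 1.43 on the 6 arrays and was 1.19 in replicate 3. After subtraction of each array's floor the ratio was 1.67 in replicate 3, where both probes lay near the floor, and 1.23 to 1.47 on the others. Because Acadl was chosen as the smallest of 35 values, no test is given.

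Next to Mef2c came Pdha1, a subunit of pyruvate dehydrogenase (SD of the log2 ratio 0.19 over 6 arrays and 0.23 over 7), and Aldoa, the muscle aldolase (0.20 and 1.04). For Myf6 the 3 closest of 36 probes were Pdha1 (0.15 over 6 arrays), Aldoa (0.16) and Cox4i1, a subunit of cytochrome c oxidase (0.16). Over 7 arrays these became 0.64, 1.51 and 0.26. The likeness of Aldoa to either factor therefore held only while replicate 3 was left out. For Myf6 over 7 arrays Pdha1 fell to rank 13 of 36. Cox4i1 then ranked 1, but its SD over 7 arrays was 1.08 once each array's floor was subtracted. After subtraction of each array's floor, the SDs for Myf6 over the 6 arrays were 0.22 for Pdha1, 0.40 for Aldoa and 0.46 for Cox4i1. Its likeness to all 3 was thus weaker on that scale. For Mef2c the values were 0.20 for Pdha1 and 0.25 for Aldoa.

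**Figure D4:**
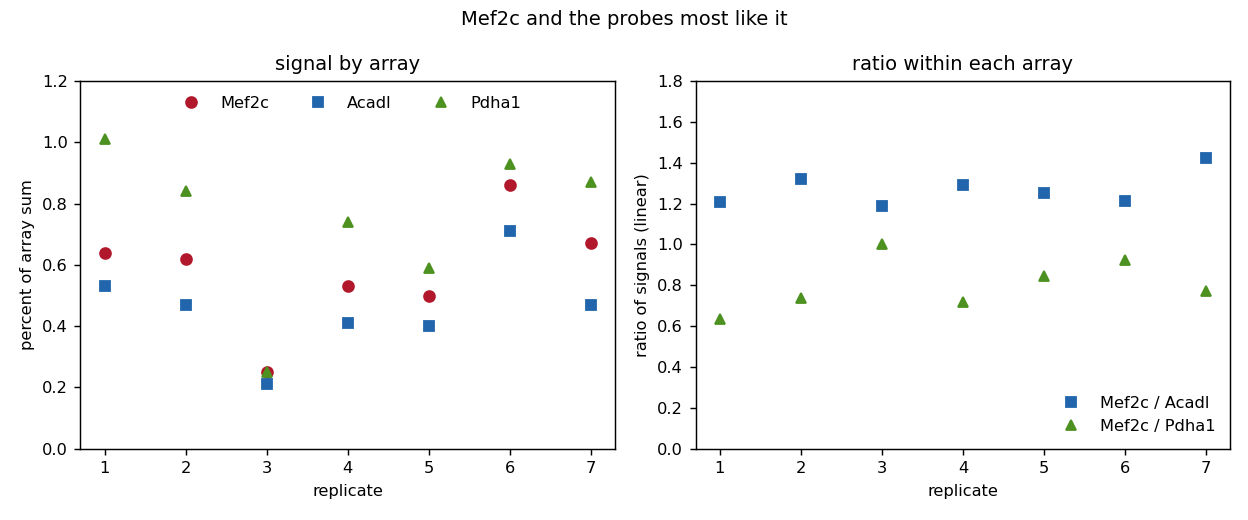
Left, signal of Mef2c, Acadl and Pdha1 as percent of the array sum on each of the 7 arrays. Right, the ratio of Mef2c to Acadl and to Pdha1 within each array (linear axes from 0). The ratio to Acadl stays between 1.19 and 1.43 on all 7 arrays, and that to Pdha1 between 0.634 and 1.

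Other genes of the same network were taken from lists of known targets, partners and signals. Of 25 contractile and metabolic target genes, 11 were on the array, and limma's treat test called 9 of these 11 above 3 times the floor over 7 arrays and 9 without replicate 3, against 13% and 17.9% of all probes. The brightest was Myh7, the slow myosin heavy chain, with 8.91%, 9.76%, 0.35%, 7.98%, 12.8%, 9.07% and 9.72%. It was also the most variable over 7 arrays (log2 SD 1.82), but without replicate 3 its SD was 0.23 and Myh1, a fast myosin heavy chain, was the most variable at 0.67. Replicate 3 was lowest for 8 of the 11 targets, against 14.3% of all probes. It was highest for 2, against 70.4% of all probes, namely Slc2a4, the insulin-responsive glucose transporter, and Capn3, a muscle calpain.

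Of 9 cell cycle genes, limma called none above 3 times the floor over 7 arrays or without replicate 3, with 0 and 1 at an unadjusted p under 0.05. The shares over all probes were again 13% and 17.9%. Ccna1, cyclin A1, was brightest, at 0.09% and 0.08% in replicates 1 and 2, 0.26% in replicate 3 and 0.36% to 0.86% in replicates 4 to 7. Over 7 arrays Cdk5 was most variable, at 0.90% in replicate 3 and 0.05% to 0.12% elsewhere. Without replicate 3 the log2 SD of Cdk5 was 0.51 and that of Ccna1 1.45, and the variance test then called Ccna1. That test called 2.24% of all probes without replicate 3, and none on median-centred or quantile-normalized arrays. Cdkn1a, the cell cycle inhibitor that accompanies myogenic differentiation, read 0.05% to 0.16%. Among 11 probes for signals that act on these factors, limma called 2 over 7 arrays, Igf2 and Il6st, the gp130 co-receptor of IL-6-type cytokines, a share near that of all probes (13%). The brightest was Il6st. Over 7 arrays the most variable was a probe for Igf1, a growth factor that promotes differentiation, with 4.93% in replicate 3 and 0.10% to 0.46% elsewhere. Without replicate 3 its log2 SD was 0.82, below Igf2 (1.68) and Il6st (1.54). The variance test then called Igf2 and Il6st, again only on the deposited scale. These 2 probes were dim in replicates 1 and 2, as Ccna1 was, Igf2 at 0.17% in both and Il6st at 0.23% and 0.24%. In replicates 4 to 7 they read 0.70% to 2.42% and 1.13% to 2.24%. Of 3 cytoskeletal and immediate-early Srf targets 1 was called over 7 arrays and 1 without replicate 3, against 13% and 17.9% of all probes. It was the integrin gene Itgb1, at 0.27% to 0.56% outside replicate 3 and 1.28% in it. None of the 21 listed partners and inhibitors, among them the Id genes, had a named probe here.

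The probe of the targeted gene, Tnc, read 0.08% to 0.18%, which is 1.13 to 3 times the floor, and on no array above 3 times. On every array it read at or above Mef2a, above Myog and Myf5, and below Mef2c. It was above Myf6 in replicates 3, 4 and 5 and above Srf in replicate 4, and below both on the other arrays. Myod1 was above Tnc in replicates 1 and 3 only. Whether the Tnc reading is transcript or background was not tested. Without an array from a mouse with an intact allele, none of these levels can be called altered.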

How the data were processed

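Soleus RNA of 7 mice was reverse transcribed with gene-specific primers and a radioactive nucleotide and hybridised to a 1-channel array, per the labels' protocols. How spots were scanned and background was treated is not stated by the labels. The authors deposited linear intensity values per spot, scaled to the array sum: without 28S rRNA and 1 unnamed probe, arrays sum to 99.8% to 100.02%. The unnamed probe was picked as the one whose omission brought these sums closest to the whole. The deposited values were multiplied to percent and used without further scaling. Gene names came from the platform's annotation table, and all 7 members matched RefSeq genes by Entrez identifier.

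Tests used limma 3.58.1 in R 4.3.3 on log2 values, with an intercept-only design, robust trended moderation and Benjamini-Hochberg adjustment over all 223 probes at 0.05. Signal over the floor was tested with treat against 3-fold, and spread with a one-sided F test of each variance against the trend. Both were run on simulated data with independent normal errors, where a minimum recovery was required of treat but not of the variance test. The absence of a variance call therefore does not show that a factor's spread was ordinary. The simulations held no outlying array and no recording steps. They therefore do not cover an array like replicate 3 or stepped readings near the floor. Intensities have no counting error, and the number of arrays limits the precision. Replicates 1 and 2 resembled each other closely (SD of log2 differences 0.24) and were kept apart in the tests, with their average as an alternative. Further alternatives were the floor percentile, the multiple of the floor, a pseudocount of 0.05%, quantile normalization, median-centring, a filter on dim probes (168 kept), moderation without trend or robustness, and leaving out each replicate.

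Members and lists were chosen with earlier results of these data known. Named genes are the members, the 3 probes most like each member that was above 3 times the floor on at least 4 of the 6 arrays other than replicate 3, the brightest and most variable probe of each list, Tnc and 28S rRNA. Other genes were named after their values were seen.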

Additional observations from a re-analysis of the deposited data

Results flagged for a closer look

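The 7 factors were examined for an array far from the others by Dixon's ratio, the distance to the next array divided by the range of all 7, on 2 scales each. Of these 14 values 3 exceeded its 95% critical value. The 2 scales share their readings, so a chance rate of 1 in 20 for separate values cannot be set against this count. The ratio was not computed for the other probes, and replicate 3 was the highest array for 70.4% of all probes. Myod1 in replicate 3 stood out as percent of the array sum (0.974, with 3.11% against 0.04% to 0.12%) and as a multiple of the floor (0.959, with 20.7 against 1 to 1.8). Myf5 in replicate 7 stood out as a multiple of the floor (0.729, with 2 against 0.8 to 1.13). That reading is 0.08% of the sum, 4 recording steps above a floor of 0.04%.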

How the results depend on the processing

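The count of factors above 3 times the floor was 1, Mef2c. It was 0 with the floor at the 25th percentile (Mef2c limma adjusted p = 0.053), with a pseudocount (0.21) and with replicates 1 and 2 averaged (0.093), and from 0 to 1 when 1 replicate was left out. Against the floor itself it was 5. With replicate 3 kept, Mef2c was called in 5 of 14 alternatives. In the 10 settings without replicate 3, most of them chosen after seeing the data, it was called each time (highest limma adjusted p = 0.00031). The count over all probes was 29 and became 19 with a pseudocount, 44 at 2 times the floor and 174 at the floor itself, and 20 to 40 with 1 replicate left out. The variance test called none of the 7 factors in any setting run and at most 1 at an unadjusted p under 0.05, with the lowest limma adjusted p at 0.068 for Myod1. Over all probes it called 0, and 0 to 5 with 1 replicate left out. The 5 calls without replicate 3 became 0 on median-centred arrays, where limma gave 17 probes an unadjusted p under 0.05, and 0 after quantile normalization, where it gave 10. Without replicate 3 and also without replicates 1, 2, 4, 5, 6 or 7 it called 9, 7, 14, 2, 8 and 2, and 10 with replicates 1 and 2 averaged. The mean log2 signal of Myf5 over the floor was 0.12 and turned to -0.070 with the floor at the 25th percentile, -0.025 without replicate 7 and -0.066 without replicate 3 at the 25th percentile. With replicate 3 and each other replicate left out together it ran from -0.030 to 0.23. The cause of these changes was not tested. No paired analysis was possible because there is only 1 group. Recording steps of 0.01% limit every reading near the floor.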
